A study of Mus musculus with 8 samples.

Results

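The Pax genes encode transcription factors that share a paired domain, and the mouse has 9 of them, Pax1 to Pax9. All 9 were found in each file by their gene symbol, out of 21352 genes listed and 20368 genes on chromosomes 1 to 19. Their trimethylation of histone H3 lysine 27 (H3K27me3) was measured by CUT&RUN in mouse primordial germ cells (PGCs), the cells of the embryo that will form the gametes. In CUT&RUN an antibody guides protein A fused to micrococcal nuclease to its target, and the DNA cut loose there is sequenced. Non-specific IgG takes the place of the antibody in control libraries and measures cutting without a target.

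Of the groups, 5 had a processed file, each with 1 library, out of 8 labelled samples. H3K27me3 was profiled in female PGCs at E11.5 and at E12.5 (embryonic days). IgG was profiled in male PGCs at E11.5 and in female PGCs at E12.5 and at E13.5. All embryos were of the strain cross B6 x Cast. Females had the genotype Xist KO/+:Oct4-eGFP+/- and males Xist KO/Y:Oct4-eGFP+/-, so every group, IgG included, carried the Xist knockout allele and the Oct4-eGFP reporter. Xist is the RNA that silences an X chromosome in female cells, and all Pax genes are on autosomes. Each library came from PGCs sorted out of pooled embryos of a single sex. The 3 samples that the labels mark as a repeat of H3K27me3 at either stage were not analysed here. As each group was a single library, no spread between replicates was measured, and the intervals below are exact 95% intervals that cover counting error only.

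Pax proteins fall into 4 structural groups. Pax1 and Pax9 (group I) have no homeodomain, Pax2, Pax5 and Pax8 (group II) keep part of one, and Pax3 and Pax7 (group III) and Pax4 and Pax6 (group IV) have a complete one. Group IV lacks the octapeptide motif that the other groups carry. The genes act early in organ formation, in somites, kidney, eye, brain, thyroid, pancreas and B cells. H3K27me3 is laid down by Polycomb repressive complex 2, often over CpG-rich starts of developmental regulators that are silent in the cell at hand, and germ cells are known to carry it at such genes.

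The reads of each gene, summed over both parental alleles, were divided by the reads of chromosomes 1 to 19 and given per 1000000 of them (reads per 1000000, RPM), and this level is the unit used below. Those reads numbered 2356356 and 5020062 in H3K27me3 at E11.5 and E12.5, and 1357583, 1515532 and 5705401 in IgG at E11.5, E12.5 and E13.5. The median gene had 32, 67, 23, 28 and 91 reads in these libraries, in the same order. Since PGCs are a small sorted population profiled in bulk, fewer cells with the mark and less of the mark per cell cannot be told apart. Marker lists of cell types are given as levels only. They do not test the sort, since housekeeping genes also passed 2-fold in 0 of 23 at E11.5 and 0 of 31 at E12.5. Of the germ cell markers tested, 0 of 5 at E11.5 and 0 of 9 at E12.5 were at least 2-fold above the stage's IgG. All 9 tested markers of the somatic gonad were so at each stage, and 1 of 4 blood and endothelial markers. Of all genes 17.2% at E11.5 and 15.2% at E12.5 were. Gata4, a somatic gonad regulator, stood at 5.05-fold over IgG at E12.5 (4.30 to 5.98), and Ddx4, a germ cell RNA helicase, at 0.494-fold (0.372 to 0.661).

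The start regions of 7 of the 9 genes were matched in RefSeq (GRCm38.p6), all but Pax3 and Pax4. The 250 bases before the start are printed for Pax2 and Pax8, the group II genes near opposite ends of the H3K27me3 order given below, for Pax5, the other group II gene, and for Pax6, which had the largest difference between stages. The windows printed lie just outside the annotated gene, whose coordinates in the same build are given with each gene below. CpG dinucleotides, the feature linked to Polycomb recruitment, are in capitals.
Pax2 chr19:44746351-44746600, plus strand: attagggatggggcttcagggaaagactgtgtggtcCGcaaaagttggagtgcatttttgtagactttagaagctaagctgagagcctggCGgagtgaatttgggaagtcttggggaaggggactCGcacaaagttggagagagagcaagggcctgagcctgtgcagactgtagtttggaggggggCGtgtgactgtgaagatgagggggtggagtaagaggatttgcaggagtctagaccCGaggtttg
Pax8 chr2:24475600-24475849, minus strand: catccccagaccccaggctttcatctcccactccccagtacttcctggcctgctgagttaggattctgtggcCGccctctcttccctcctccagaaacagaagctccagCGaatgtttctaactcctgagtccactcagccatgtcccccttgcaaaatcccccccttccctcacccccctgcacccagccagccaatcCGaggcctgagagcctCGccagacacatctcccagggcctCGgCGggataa
Pax5 chr4:44710695-44710944, minus strand: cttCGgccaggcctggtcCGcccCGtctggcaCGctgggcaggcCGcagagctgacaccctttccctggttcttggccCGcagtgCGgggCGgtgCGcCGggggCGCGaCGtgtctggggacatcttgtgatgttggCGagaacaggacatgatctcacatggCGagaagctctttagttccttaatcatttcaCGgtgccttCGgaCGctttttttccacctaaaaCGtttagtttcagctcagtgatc
Pax6 chr2:105668646-105668895, plus strand: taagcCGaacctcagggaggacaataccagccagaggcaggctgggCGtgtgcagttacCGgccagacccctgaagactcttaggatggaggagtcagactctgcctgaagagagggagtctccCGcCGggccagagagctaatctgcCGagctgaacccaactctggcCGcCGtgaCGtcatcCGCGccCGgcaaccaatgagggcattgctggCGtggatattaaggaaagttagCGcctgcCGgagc
These 4 windows hold 5, 6, 19 and 15 CpGs for Pax2, Pax8, Pax5 and Pax6. Pax2 has 2 further annotated starts inside the gene, with 20 and 25 CpGs in the bases before them. Taking the window with the most CpGs of each gene, the counts were 25 in Pax2, 19 in Pax5, 15 in Pax6, 13 in Pax7, 10 in Pax1, 7 in Pax9 and 6 in Pax8, against a median of 12 over 15633 genes (quartiles 3 and 21). The Pax windows lie on both sides of that median, and 1 of 7, that of Pax2, lies above the upper quartile. The motif TATAAA was found on neither strand of any of the 7 windows and in 11.6% of all genes' windows, CCAAT was in 3 of 7 (Pax1, Pax6 and Pax8) against 35.3%, and GGGCGG in 5 of 7 against 46.9%.

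Every Pax gene had a higher level in both H3K27me3 libraries than in any of the 3 IgG libraries. This separation held for 9 of 9 Pax genes and for 23.9% of the 18040 genes with at least 20 reads over the 5 libraries. Summed over the family, the level was 3202 at E11.5 and 3001 at E12.5 in H3K27me3, and 703, 860 and 670 in IgG at E11.5, E12.5 and E13.5. The family as a whole was therefore 4.56-fold (4.26 to 4.88) above IgG at E11.5 and 3.49-fold (3.30 to 3.70) at E12.5. At E11.5, 9 of 9 Pax genes had at least 2-fold more H3K27me3 than the IgG of the same stage, a distance reached by 17.2% of all 15050 genes tested. At E12.5 it was 7 of 9, against 15.2% of 16526 genes, and no Pax gene was 2-fold below IgG at either stage (29.7% and 29.5% of all genes). The E11.5 control is male and the E12.5 control female, like the H3K27me3 libraries, and each stage is also set against the other controls below. Calls were made on the log2 of the level plus 1. On that scale the median Pax gene stood 5.33-fold above IgG at the earlier stage and 4.09-fold at the later, and the median of all genes was 0.714-fold and 0.687-fold.

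**Figure D1:**
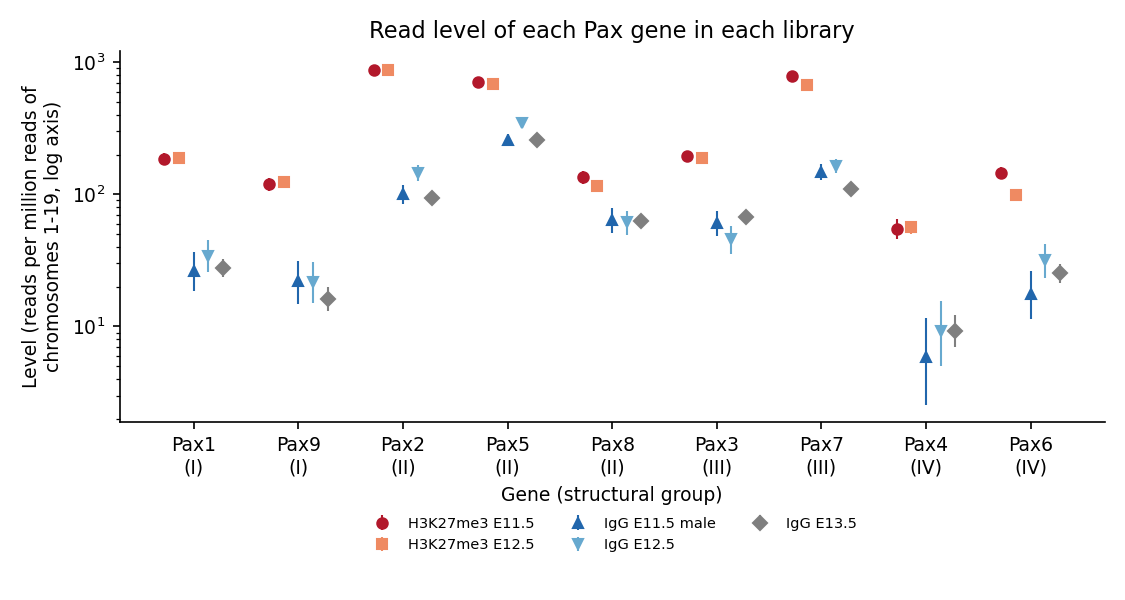
Level of each Pax gene (RPM, reads scaled to those of chromosomes 1 to 19, log axis) in the 2 H3K27me3 and 3 IgG libraries, with exact 95% Poisson intervals. For each of the 9 genes both H3K27me3 points lie above all 3 IgG points, with the narrowest distance at Pax8.

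Group II held genes from both ends of the family's order. Pax2 (chr19:44746601-44838269), which patterns the nephric duct, optic stalk and midbrain-hindbrain border, had levels of 872 at E11.5 and 874 at E12.5 in H3K27me3, and of 100.2, 145 and 94.1 in IgG at E11.5, E12.5 and E13.5. This was 8.71-fold (7.32 to 10.4) above the stage's IgG at E11.5 and 6.02-fold (5.26 to 6.93) at E12.5. Pax2 lay above 98.6% and 98.9% of all genes tested in these comparisons. Pax8 (chr2:24420551-24475599), which drives thyroid follicular differentiation and acts with Pax2 in the kidney, had levels of 135 and 116 in H3K27me3 and of 64.1, 61.4 and 62.4 in IgG. Its distance to IgG was 2.10-fold (1.65 to 2.69) at E11.5 and 1.88-fold (1.51 to 2.37) at E12.5. Pax2 was above Pax8, its partner in the kidney, with intervals that did not overlap in any of the 6 pairings of H3K27me3 and IgG libraries. Pax5 (chr4:44524748-44710694), which commits lymphoid progenitors to the B cell lineage, had levels of 706 and 688 in H3K27me3 and of 259, 347 and 260 in IgG. Its distance was 2.73-fold (2.43 to 3.07) at E11.5 and 1.98-fold (1.81 to 2.18) at E12.5, just below 2-fold. Pax5 spans 185.731 kb, the longest of the family, and its level is an average over that span: the counts do not show where in a gene the reads lie.

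Group I was more even. Pax1 (chr2:147361930-147375049), a regulator of the sclerotome and vertebral column, had levels of 187 and 188 in H3K27me3 and of 26.5, 34.3 and 27.9 in IgG. It was 7.04-fold (5.01 to 10.2) above IgG at E11.5 and 5.49-fold (4.15 to 7.41) at E12.5. The span counted for Pax1 was 31371 bases, 2.39 times the RefSeq gene, so its reads may include flanking sequence. Pax9 (chr12:56691693-56712824), needed for teeth, palate and pharyngeal pouch derivatives, had levels of 119 and 124 in H3K27me3 and of 22.1, 21.8 and 16.1 in IgG. It was 5.40-fold (3.70 to 8.15) and 5.68-fold (4.00 to 8.33) above IgG. The intervals of both group I genes overlapped at each stage.

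In group III the paralogues were apart against some controls and not against others. Pax7 (chr4:139737059-139833530), the marker of muscle satellite cells, had levels of 789 and 668 in H3K27me3 and of 147, 164 and 109 in IgG, which put it 5.36-fold (4.63 to 6.23) above IgG at E11.5 and 4.08-fold (3.59 to 4.66) at E12.5. Pax3 (chr1:78101267-78197136), which specifies the dermomyotome and neural crest, had levels of 195 and 189 in H3K27me3 and of 60.4, 45.5 and 66.95 in IgG. It was 3.22-fold (2.54 to 4.13) above IgG at E11.5 and 4.16-fold (3.25 to 5.39) at E12.5. Against the deepest control, IgG E13.5, Pax7 was 6.14-fold (5.63 to 6.70) and Pax3 2.83-fold (2.51 to 3.19) at E12.5, and the intervals were apart. Against IgG E12.5 they overlapped at both stages.

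Group IV holds the shortest gene of the family and the one that differed most between stages. Pax4 (chr6:28442334-28449340), which directs pancreatic progenitors toward beta cells, spans 7.02 kb and had levels of 54.7 and 56.2 in H3K27me3 and of 5.89, 9.24 and 9.29 in IgG. Only 8 reads in IgG E11.5 and 14 in IgG E12.5 lie behind its 9.29-fold (4.58 to 21.98) and 6.08-fold (3.56 to 11.3) distances. Against the 53 reads of IgG E13.5, Pax4 was 6.05-fold (4.496 to 8.27) at E12.5. Pax6 (chr2:105668896-105698410), the regulator of eye, forebrain and islet alpha cells, had levels of 145 and 98.4 in H3K27me3 and of 17.7, 31.7 and 25.2 in IgG. It was 8.19-fold (5.41 to 12.95) above IgG at E11.5 and 3.11-fold (2.31 to 4.27) at E12.5, and its H3K27me3 level differed most between the stages.

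Set against each of the 3 IgG libraries in turn, the 54 distances of 9 genes in 2 H3K27me3 libraries ran from 1.80-fold (Pax8) to 9.53-fold (Pax4), and 50 were at least 2-fold. The lower bound of the interval was above 1 in all 54, and the lowest bound was 1.44. The share of all genes with such a bound was not computed. The 54 distances reuse the same H3K27me3 and IgG libraries and are not separate observations. At E12.5, 8 of 9 Pax genes reached 2-fold over IgG E11.5 and 8 of 9 over IgG E13.5, beside 15.9% of all genes in either comparison. At E11.5 all 9 did so over IgG E12.5 (15.2% of all genes) and over IgG E13.5 (16.8%). None was 2-fold below IgG in these 4 comparisons, where 27.6% (E12.5 over IgG E11.5), 24.2% (E12.5 over IgG E13.5), 31.8% (E11.5 over IgG E12.5) and 27.2% (E11.5 over IgG E13.5) of genes were. Pax8 and Pax5 were the 2 lowest of the family in every comparison, and Pax2 was among the highest 2. The first step in the order at which neighbouring intervals did not overlap lay above Pax3 in both comparisons with IgG E13.5 and at E11.5 with IgG E11.5. It lay below Pax3 at E11.5 and below Pax6 at E12.5 with IgG E12.5, and just above Pax8 at E12.5 with IgG E11.5. Above that step the intervals of neighbours in the order overlapped, which does not show that their distances were equal. Genes farther apart in the order could still be separate. Over IgG E13.5 at E12.5, the intervals of Pax2 (8.49 to 10.2) and Pax7 (5.63 to 6.70) did not overlap.

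**Figure D2:**
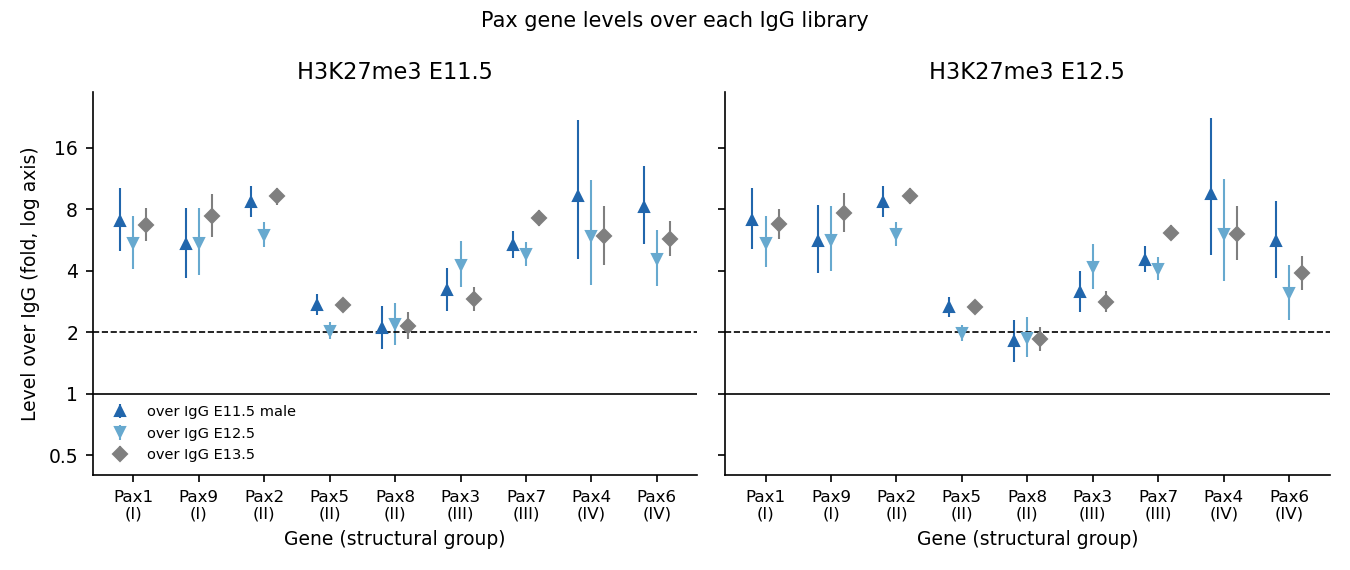
Level in H3K27me3 divided by the level in each IgG library (log axis), at E11.5 (left) and E12.5 (right), with exact 95% intervals for counting error; the dashed line marks 2-fold. All 9 genes lie above 1 against all 3 controls, and Pax5 and Pax8 lie nearest to 2-fold, between 1.80 and 2.73.

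The scaling to all reads bears on these counts. Under scaling by trimmed mean of M-values (TMM), the median of all genes moved from -0.49 to -0.06 on the log2 scale at E11.5 and from -0.54 to -0.04 at E12.5, and 9 of 9 Pax genes passed 2-fold at each stage. The share of all genes that passed was larger under TMM too, moving from 17.2% to 23.8% at E11.5 and from 15.2% to 24.9% at E12.5. The share of calls in all genes that were higher than IgG moved with it, from 36.7% to 71.8% at E11.5 and from 33.97% to 81.8% at E12.5. A scaling factor multiplies every gene of a library alike. The distance of the family from the median of all genes can therefore change only through the added 1. It does not test the scaling. The median Pax gene was 7.46-fold (E11.5) and 5.95-fold (E12.5) above the median of all genes, and 7.58-fold and 6.07-fold with TMM.

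**Figure D3:**
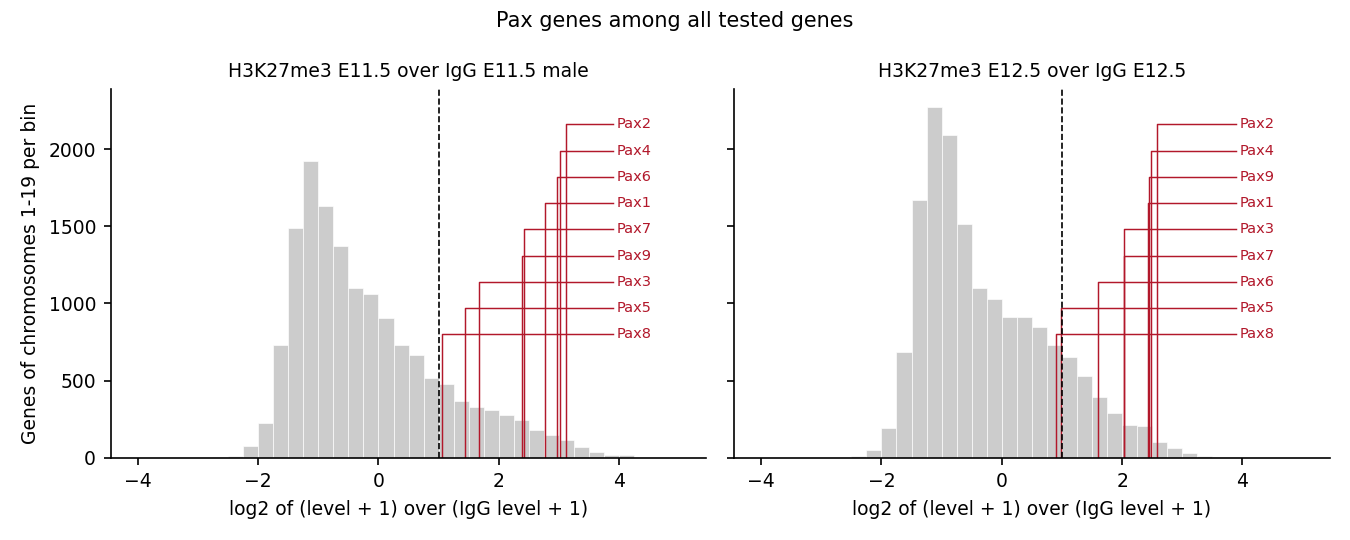
Number of genes of chromosomes 1 to 19 per bin of the log2 ratio of H3K27me3 to the IgG of the same stage (level plus 1), with the 9 Pax genes marked in red and 2-fold dashed. All Pax genes lie in the right tail, from Pax8 above 83.6% (E11.5) and 83.0% (E12.5) of genes to Pax2 above 98.6% and 98.9%.

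Levels were also divided by length, since the genes differ in span. Only reads with a strain variant are counted, so the variants a gene holds also bear on its level per kb. Per kb of the counted span, Pax2 had the highest H3K27me3 level of the family at both stages, 10.7 RPM at each, against a median of 0.818 at E11.5 and 0.780 at E12.5 over all genes with at least 10 reads. Pax7 (8.18, then 6.93 at the later stage) and Pax4 (7.80 and 8.002) followed, Pax7 ahead at E11.5 and Pax4 at E12.5. Below them came Pax1 with 5.95 and 6.01 and Pax9 with 5.66 and 5.87. Pax6 (5.08 and 3.46) stood above Pax5 (3.802 and 3.70) at E11.5 and below it at E12.5, and the lowest at both stages were Pax8 with 2.44 and 2.10 and Pax3 with 2.03 and 1.97. All 9 were above the median of all genes in both libraries. In IgG the Pax genes ranged from 0.475 (Pax3) to 1.87 (Pax5) per kb, both in IgG E12.5, around medians of 1.16, 1.24 and 1.09. Pax3 had the lowest level of the family per kb in H3K27me3 and in IgG E12.5 and E13.5.

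The IgG libraries also differed among themselves. Their largest ratio for a Pax gene, 1.79, came close to the lowest distance of H3K27me3 to IgG, 1.80 for Pax8. The 27 ratios of a Pax gene between IgG libraries ran from 0.648 (Pax2, E13.5 over E12.5) to 1.79 (Pax6, E12.5 over E11.5), and 0 of 27 reached 2-fold in either direction. Background for a 2-fold difference was 2.42% of genes higher and 1.43% lower for E12.5 over E11.5, 3.72% and 5.62% for E13.5 over E12.5, and 1.26% and 1.1% for E13.5 over E11.5. IgG E12.5 gave the family a summed level 1.22 times that of IgG E11.5 (1.12 to 1.33). Pax6 was 1.79 times as high in IgG E12.5 as in IgG E11.5 (1.08 to 3.06), Pax2 1.45 times (1.16 to 1.81) and Pax5 1.34 times (1.17 to 1.54). This IgG level is the divisor of their E12.5 distances above.

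Between E11.5 and E12.5, 6 of 9 Pax genes had H3K27me3 levels that could not be separated beyond counting error. The share of all genes separated in this way was not computed, and genes with more reads are separated at smaller differences. The ratios of E12.5 to E11.5 for these 6 were 1.04 for Pax9, 1.03 for Pax4, 1.01 for Pax1, 1.002 for Pax2, 0.974 for Pax5 and 0.972 for Pax3. The intervals of these 6 ran from 0.830 to 1.27 at their widest, for Pax4. Pax7 was lower at E12.5, at 0.846 (0.800 to 0.896), as were Pax8, at 0.859 (0.748 to 0.988), and Pax6, at 0.680 (0.591 to 0.783). Of all genes 6.27% had a ratio below that of Pax6. Lower ratios were not particular to Pax6: medians (level plus 1) were 0.774 for eye, brain and spinal cord partners and 0.806 for paired-type homeobox genes, lists described below. The medians of the Hox and B cell lists were 0.914 and 1.003, and that of all genes was 1.007. Split by allele, the Pax6 ratio was 0.724 (0.591 to 0.890) on the first and 0.641 (0.528 to 0.781) on the second. Pax7 was at 0.801 (0.737 to 0.870) and 0.891 (0.823 to 0.965), and Pax8 at 0.767 (0.630 to 0.936) and 0.960 (0.788 to 1.17). These ratios divide the same reads of the same libraries, so they are not independent of the ratios above. By the 1.5-fold mark set for the stages, 0 of 9 Pax genes were higher (4.73% of 16526 genes were) and 0 of 9 lower (5.32%). The mark compares 1 library with 1 library, and a replicate spread for Pax6 was not measured.

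The cross between strains separates the reads of the parental alleles. The deposited files do not name the strain of either allele, so they are called first and second here, and the share is the percent of a gene's allelic reads on the second. For each Pax gene the H3K27me3 level was above IgG on both alleles. Scaled to the reads of that allele over chromosomes 1 to 19, all 18 allele levels of the 9 genes were above IgG in each of the 6 pairings. The lower bound was above 1 in each, and the share of all genes with such bounds was not computed. The bounds therefore do not show a trait particular to the family, and the 6 pairings reuse the same libraries. At E12.5 against IgG E12.5 they ran from 1.79-fold on the second allele of Pax8 (1.33 to 2.45) to 8.54-fold on the second allele of Pax4 (3.57 to 26.7). The widest of these intervals rests on 5 IgG reads.

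The shares of the Pax genes lay between 47.9% (Pax8) and 54.3% (Pax1) at E11.5, around the 51.6% of all chromosome 1 to 19 reads of that library. In an exact two-sided binomial test against that pooled share, adjusted over 15332 genes, 0 of 9 were called, while 6.69% of genes were called with more and 4.98% with less of the second allele. At E12.5 the shares lay between 48.3% (Pax9) and 53.8% (Pax3), with 50.9% over the library. Pax7 was called there, at 53.2% (51.5 to 54.9) with an adjusted p of 0.0496 in the exact binomial test, where 9.48% of genes were called with more and 7.98% with less of the second allele. Its share was 51.2% at E11.5 and 48.0%, 53.6% and 53.0% in IgG E11.5, E12.5 and E13.5, and the IgG E12.5 and E13.5 values lie inside the interval of the H3K27me3 share. The same test called no Pax gene in IgG: 0 of 8 at E11.5 (3.21% and 0.456% of genes called with more and with less), 0 of 9 at E12.5 (3.19% and 0.28%) and 0 of 9 at E13.5 (5.84% and 2.03%). These tests compare reads within a library and not conditions.

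**Figure D4:**
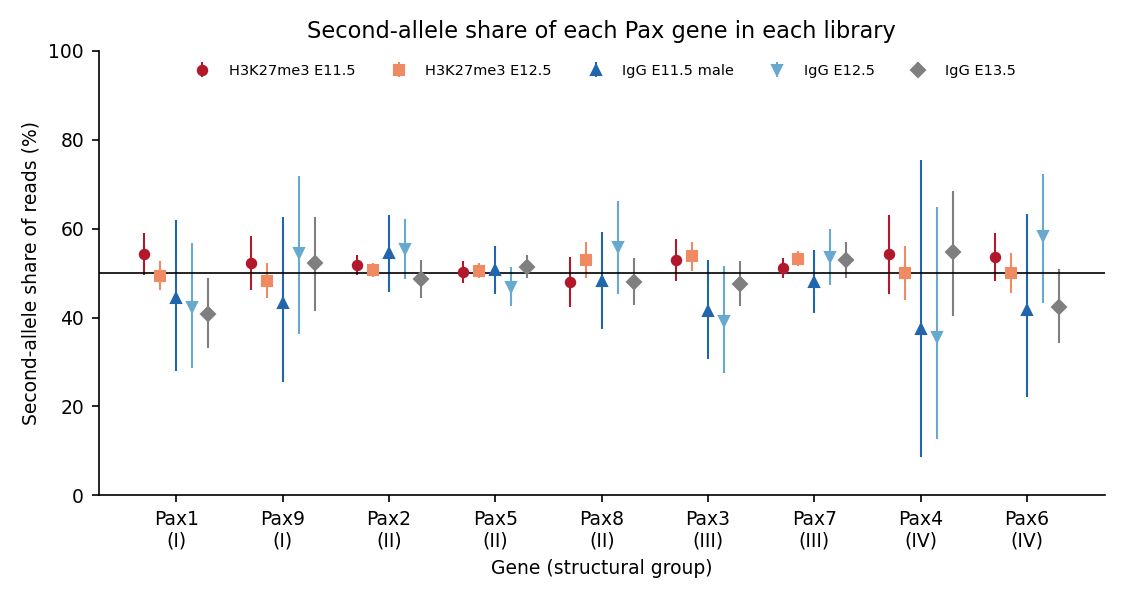
Percent of each Pax gene's allelic reads on the second allele in the 5 libraries, with exact 95% binomial intervals. The H3K27me3 shares lie between 47.9% and 54.3%. The intervals of IgG E11.5 and E12.5 are wider than those of H3K27me3 because fewer reads lie behind them. For Pax8, IgG E13.5 has 356 reads and H3K27me3 E11.5 has 317.

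The share in H3K27me3 was also set directly against that in IgG. Fisher's exact test, two-sided and adjusted over all genes tested, called 0 of 9 at E12.5 against IgG E12.5, where 1.04% of 14586 genes were called higher in H3K27me3 and 1.31% lower; 1 of 9, Pax3, had an unadjusted p below 0.05. Pax3 had a share of 53.8% in H3K27me3 and 39.1% in the 69 reads of IgG E12.5 (p = 0.0240, adjusted p = 0.321, Fisher's exact test). Against IgG E13.5 the test again called 0 of 9 (2.81% and 3.31% of all genes), with 2 unadjusted p-values below 0.05. At E11.5 against IgG E11.5 it called 0 of 8, since Pax4 had under 10 IgG reads (1.32% and 0.853% of all genes), with 0 unadjusted. Between the stages it also called 0 of 9 (0.15% and 0.379%), with 0 unadjusted p-values below 0.05.

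Lists of the genes that Pax factors work with put the family in context. Genes under 20 reads in a pair of libraries were not tested, which can leave out unmarked short genes sooner than marked ones. Ratios for single genes below are plain level ratios over the IgG of the same stage, at E12.5, and highest and lowest refer to the ratio of levels plus 1. Among 20 eye, brain and spinal cord genes, the partners of Pax2 and Pax6, 20 of 20 at E11.5 and 17 of 20 at E12.5 reached 2-fold, with medians of 8.16 and 5.14. Olig2, a motor neuron and oligodendrocyte factor, was the highest, at 21.4 (5.83 to 179) on 2 IgG reads, and Six3, a forebrain and eye factor, stood at 5.84 (4.02 to 8.80). Atoh7, a retinal ganglion cell factor, was the lowest at 1.60 (0.702 to 4.24). Of the paired-type homeobox genes without a paired domain, the nearest relatives of the family by homeodomain, 21 of 25 and 18 of 26 reached it, with medians of 4.54 and 4.30. Hesx1, a pituitary and forebrain factor, was the highest at 26.7 (7.29 to 222) on 2 IgG reads, and Isx the lowest at 0.745 (0.527 to 1.07). The Hox clusters, 39 genes of a family known for Polycomb marking, had 29 of 29 and 32 of 32 tested members past 2-fold, with medians of 8.40 and 7.13, beside Pax medians of 5.33 and 4.09.

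The lists of single organs differed in how many of their genes passed 2-fold. Muscle and somite partners of Pax3, Pax7 and Pax1 passed 2-fold in 10 of 13 and 10 of 15 tested genes (medians 6.10 and 3.40). Meox1, a somite factor, was at 3.48 (2.58 to 4.79) at E12.5, and Tbx6, a presomitic mesoderm factor, was the lowest at 0.467 (0.206 to 1.10). Neural crest and melanocyte partners passed in 5 of 9 and 6 of 10 (medians 2.30 and 2.197), with Tfap2a highest at 8.42 (5.65 to 13.1) and Kit lowest at 0.472 (0.381 to 0.586). Kit is also a germ cell gene. Tooth and pharyngeal partners of Pax9 and Pax1 passed in 9 of 10 and 7 of 10 (medians 6.94 and 3.97), from Hoxa3 at 8.71 (6.47 to 11.9987) to Foxn1, the thymic epithelial factor, at 0.813 (0.643 to 1.04). Pancreas partners of Pax4 and Pax6 passed in 6 of 8 and 6 of 7 (medians 4.79 and 4.81), from Pdx1 at 12.2 (6.89 to 23.7) to Ins2, the insulin gene, at 1.19 (0.979 to 1.46).

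Kidney and ear partners of Pax2 and Pax8 passed in 12 of 17 and 11 of 17 (medians 3.05 and 2.53), with Emx2 highest at 8.80 (5.08 to 16.7) and Six4 lowest at 0.453 (0.249 to 0.841). Within this list Gata3, a nephric duct factor, was at 3.30 (2.52 to 4.41), while Eya1, a transcriptional coactivator, was at 0.810 (0.686 to 0.958). Thyroid partners of Pax8 passed in 3 of 7 and 2 of 7 (medians 1.41 and 1.29). The 2 at E12.5 were the transcription factors Foxe1, at 9.21 (2.44 to 77.7) on 2 IgG reads, and Nkx2-1, at 6.14 (2.74 to 17.1). Tg, the thyroglobulin gene, was at 0.731 (0.632 to 0.847), and Slc5a5, the iodide transporter, was the lowest at 0.406 (0.251 to 0.662). B cell partners of Pax5 passed in 1 of 9 at each stage (medians 1.21 and 0.954): Flt3, a lymphoid progenitor receptor, was at 4.38 (3.68 to 5.24). Ebf1, which acts with Pax5, was at 1.79 (1.63 to 1.97), and Igll1 was the lowest at 0.218 (0.0982 to 0.471). The B cell and thyroid lists had the lowest medians of the organ lists at both stages. Some genes stand in more than one list, Emx2 and Nkx2-2 among them. Housekeeping genes, as a background list, passed in 0 of 23 and 0 of 31, with medians of 0.439 and 0.472, and blood and endothelial markers in 1 of 4 at each stage.

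The nearest measured genes on either side of each Pax gene gave a local background. Of 36 such neighbours, 31 had at least 20 reads, and 7 of 31 were at least 2-fold above IgG at each stage. Of all genes 17.2% at E11.5 and 15.2% at E12.5 were. The medians of the neighbours were 0.771 at E11.5 and 0.653 at E12.5. Around Pax2 the 4 neighbours Hif1an, Ndufb8, Slf2 and Sema4g were all between 0.421-fold and 0.588-fold at E12.5. Melk, Zcchc7 and Grhpr around Pax5 were between 0.346-fold and 0.668-fold, and Il1rn, Psd4, Cacna1b and Ehmt1 around Pax8 between 0.516-fold and 0.9999-fold, so none of these neighbours of group II genes reached 2-fold at E12.5. Both group I genes had neighbours past 2-fold, and so did Pax3, Pax4 and Pax7. Nkx2-2 lies 166 kb and Foxa2 668 kb from Pax1, and Nkx2-9 78.1 kb and Nkx2-1 155 kb from Pax9. Pax1 is flanked by Nkx2-2 (10.9-fold, then 6.26-fold at the later stage) and Foxa2 (9.04-fold and 5.81-fold), and Pax9 by Nkx2-9 (10.1-fold and 8.20-fold) and Nkx2-1 (8.64-fold and 5.10-fold), all regulators of the floor plate or foregut. Pax9 overlaps the long gene Slc25a21, a mitochondrial carrier, which was at 0.771-fold and 1.38-fold. Pax6 overlaps Elp4, at 0.374-fold and 0.622-fold, and reads in an overlap may be counted to either gene or to neither. Klhdc7a beside Pax7 was at 11.9-fold and 5.80-fold, Fscn3, 3.712 kb from Pax4, at 2.84-fold and 3.05-fold, and Slc4a3, 2542 kb from Pax3, at 6.39-fold and 3.33-fold.

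**Figure D5:**
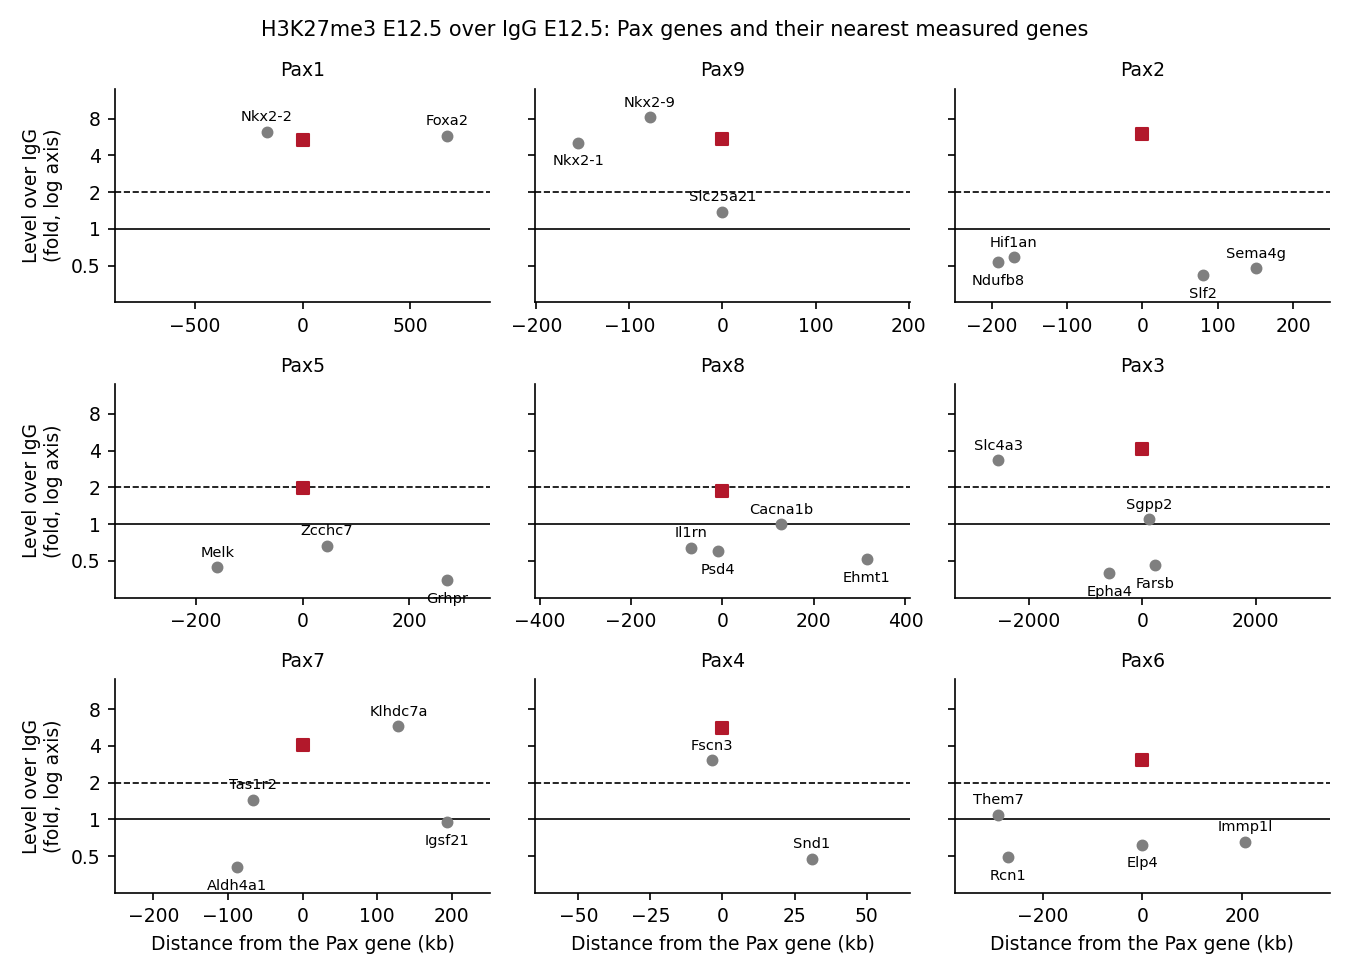
Level in H3K27me3 E12.5 over IgG E12.5 (level plus 1, log axis) of each Pax gene (red square, at 0) and of up to 2 measured neighbours on each side with at least 20 reads (grey), against the distance in kb. Neighbours of Pax1 and of Pax9 on the lower side lie above 2-fold, and those of Pax2, Pax5 and Pax8 lie at or below 1.

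Genes outside the family with the most similar pattern were found by the distance between their 5 log2 levels, centred on each gene's own mean, and the median Pax pattern, over 5 libraries and 10039 genes with at least 20 reads in every library. The 5 nearest were Arhgef40 (distance 0.184), Sptbn4 (0.202), Ifnar2 (0.206), Tead4 (0.224) and Chrna4 (0.243), against a median of 3.27 over all these genes. Arhgef40 had levels of 121 and 105 in H3K27me3 and of 22.1, 24.4 and 20.9 in IgG, close to the shape of the median Pax gene. Within the family, Pax7 was nearest to the median Pax pattern (0.439) and Pax8 farthest (1.43), followed by Pax5 (1.15). That pattern is taken from these same members. Outside the family, 78 genes lay nearer to it than Pax7 and 1060 nearer than Pax8, so the pattern was not particular to Pax genes.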

How the data were processed

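CUT&RUN libraries were made with protein A-MNase and the NEBNext Ultra II kit with 15 amplification cycles, per the labels' protocols. The submitters' processing notes name build mm10 and, with no roles, Bowtie2 2.4.2, featureCounts, cutadapt 4.1, MACS2 2.2.7.1, SAMtools 1.11, FastQC 0.11.9, GATK, Trim Galore 0.6.6, deepTools 3.5.1 and MultiQC 1.13. How duplicates were handled and alleles assigned is not given in the sources used. The files deposited by the authors hold raw read counts per gene for 2 alleles, the fraction of reads on the second allele, and the gene's span. Reads without a strain variant are not in these counts.

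Levels were reads of both alleles per 1000000 reads of chromosomes 1 to 19 (20368 genes). Calls used log2(level + 1) over genes with 20 or more reads in both libraries together, with marks of 2-fold over IgG and 1.5-fold between stages. Printed ratios for members and list genes carry exact conditional binomial 95% intervals, and shares Clopper-Pearson intervals; medians, calls and neighbours' ratios use the added 1. Shares needed at least 10 reads, and p-values (exact binomial and Fisher's tests in SciPy 1.17.1) were adjusted by Benjamini-Hochberg at 0.05 over all genes tested. edgeR 4.0.16 and DESeq2 1.42.0 served only to compute scaling factors. Scripts were tested on simulated data. Positions and start regions came from RefSeq GRCm38.p6, the assembly mm10 names. Named genes were all members, the highest and lowest gene of each list at E12.5 with up to 3 further genes by role, 2 neighbours a side and the 5 nearest patterns; a few genes this rule names are not reported here. The members and the lists were chosen with earlier results of these data known.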

Additional observations from a re-analysis of the deposited data

How the results depend on the processing

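No paired analysis was possible because each group had 1 library with a file, and for the same reason no replicate could be left out. The number of Pax genes at least 2-fold above IgG at E11.5 was 9 under every other pseudocount, read minimum, scaling and control tried, and 7 at a 3-fold mark, where Pax5 and Pax8 dropped out and 10.9% of all genes passed. The share of all genes past 2-fold at E11.5 was 17.2%, and 23.8% under TMM, 24.8% under median-of-ratios and 42.2% under housekeeping scaling. At E12.5 the Pax count was 7 (15.2% of all genes), and 9 under TMM (24.9%), median-of-ratios (24.8%) and housekeeping scaling (39.6%), and 8 with the 3 IgG libraries summed (14.5%). Between stages it stayed 0. The percent of calls in all genes that were higher than IgG was 76.6% and 81.5% under median-of-ratios and 99.2% and 99.4% under housekeeping scaling. Each gene's own share in the summed IgG reads was also taken as the expectation. The number of Pax genes with a shifted share at E11.5 then moved from 0 to 1 (Pax1, adjusted p = 0.0422, Fisher's exact test). Of all 15266 genes tested there, 4.74% were called, beside 11.7% in the main test. For E12.5, Pax3 was the 1 gene called (adjusted p = 0.0420, Fisher's exact test) in place of Pax7 (adjusted p = 0.926). Of all 16979 genes tested there, 7.26% were called, beside 17.5% in the main test. The cause was not tested. Over single genes and alternatives, 335 values kept their side of the mark, 9 crossed upward and 3 downward, and 0 reversed. Depth limits most the IgG E11.5 and E12.5 values of Pax4 (8 and 14 reads).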

Other observations

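Across all genes with a start region in RefSeq, the share at least 2-fold above IgG differed with the number of CpGs in the 250 bases before the start. At E12.5 it was lower in each class than in the one before, 24.4% of 3198 genes with 0 to 4 CpGs, 18.7% of 1954 with 5 to 9, 11.3% of 1953 with 10 to 14, 8.81% of 1986 with 15 to 19 and 8.14% of 3894 with 20 or more. At E11.5 it was highest in the class of 5 to 9 CpGs, with 19.7% of 2687 genes, 21.5% of 1811, 16.8% of 1814, 12.4% of 1844 and 11.3% of 3669 in the same order. Pax2, with 25 CpGs, was in the last class, Pax5 and Pax6 in the one before it, and Pax8 and Pax9 in the class of 5 to 9. The counts are over whole genes and not over start regions.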
